A study of Homo sapiens with 7 samples.

Results

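The mRNAs of 6 splicing-related proteins, HNRNPC, HNRNPA2B1, SRSF3, MBNL1, SNRPE and LUC7L2, were examined for contacts with the translation initiation factor subunit eIF3a. The members were the entries of the eIF3a list whose interval overlapped the gene's hg19 window on the gene's strand. This gave 16 of the 4013 entries, which formed 14 clusters of reads among the 3566 on the primary chromosomes. All 6 genes had at least 1 cluster, and 0 clusters lay on the opposite strand of the windows. The windows were given with the choice of genes and not taken from an annotation, so "5′ end" below means the upstream end of a window.

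The contacts had been mapped by PAR-iCLIP in HEK293T cells, a line from human embryonic kidney that carries the SV40 large T antigen. The cells took up 4-thiouridine (100 mM per the labels) for 8 h and were exposed to ultraviolet light of 354 nm, which joins protein to RNA at the labelled uridines. The RNA fragments held by an antibody against eIF3a were then sequenced. The labels name 2 replicates, but 1 list was deposited for the whole series, with no column that keeps them apart. No value below therefore has a replicate error or a test. The other 5 samples of the series, m6A libraries from HEK293T and HepG2, were not analysed here. No input or mock sample and no mRNA level was used here, so more contact per mRNA molecule and more molecules of that mRNA cannot be told apart.

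Splicing removes introns from pre-mRNA in the nucleus. The spliceosome is built from small nuclear ribonucleoproteins (snRNPs), and further RNA-binding proteins decide which splice sites are used. The hnRNP proteins coat nascent transcripts, whereas SR proteins bind exonic enhancers and help to recruit the spliceosome. All these proteins are themselves translated from mRNAs in the cytoplasm, and eIF3 is the large complex that helps the small ribosomal subunit to load onto an mRNA.

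Annotated transcript starts of 4 members with a cluster near the 5′ end are shown, to give the sequence at the ends of these mRNAs. Each run holds 15 bases before the start in lower case and the first 15 transcribed bases in capitals, from RefSeq on GRCh38.p14. The clusters are on hg19 and no position was carried from one build to the other, so the distance from a cluster to these starts is not given.
HNRNPC (chr14:21269428-21269457, minus strand): cttcgcctcggcggcAGAGGAGACTCGGGG
HNRNPA2B1 (chr7:26200732-26200761, minus strand): agcggctctagcggcAGTAGCAGCAGCGCC
SRSF3 (chr6:36594347-36594376, plus strand): ggagaaggcggtggtCCGCCATTTCGTGGA
LUC7L2, upstream start (chr7:139340457-139340486, plus strand): cgcgtacgcagaagcGTGCGCGCGCCCGTT
LUC7L2, downstream start (chr7:139359879-139359908, plus strand): gcgaggagcgtgcgcGCTCCCGTCGTGGCG
The printed LUC7L2 starts are 19422 nt apart, so at most 1 of them can lie at the 5′ end of its window, and which one was not determined here. The 6 genes had 9 start windows in the RefSeq table, each of 300 bases (250 before the start and 50 after it), 3 of them for MBNL1 and 2 for LUC7L2. The share of T, read as uridine in RNA and the base that carries the crosslink, was 20% of the first 50 transcribed bases at the median of the 9 windows and at the median of all 35116 windows. It was 20% for HNRNPC, HNRNPA2B1, SNRPE and the upstream start of LUC7L2, 26% for SRSF3 and 14% for the downstream start of LUC7L2. The SNRPE start in that table lay inside the gene's annotated span and not at its end. The 3 starts of MBNL1 had 28%, 26% and 34%. The bases under the clusters were not read, so these shares say nothing of the reads. The motif GGAC, the commonest core of m6A sites, was searched on both strands of the 300 bases with overlaps allowed. It was present in all 9 member windows, beside 87.4% of all windows, but most of each window lies before the transcript start. Within the first 50 transcribed bases, on the transcribed sense strand alone, it was present in 3 of the 9 windows (33.3%), beside 18.9% of all windows. Those 3 were the SRSF3 window and 2 of the 3 MBNL1 windows, and none of the starts of HNRNPC, HNRNPA2B1, SNRPE or LUC7L2 had it there.

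The 14 clusters held 448 reads, which was 1.17% of the 38419 reads of all primary clusters, while they made up 0.393% of the clusters. A read here is a 25-nt unit of the deposited coverage profile. In the 14 clusters at most 1 read began at any position. The reads of a cluster were therefore bounded by its number of possible start positions, which is larger in longer clusters. The member clusters had a median of 20.5 reads with a range from 3 to 88, beside a median of 6 and quartiles of 4 and 12 over all primary clusters. Of the 14, 10 (71.4%) held more than the list's median of 6 reads, a level passed by 48.6% of all primary clusters. The genes were chosen with earlier results of these data known, and clusters of 1 gene are not independent. These shares are therefore a description only. Of the member clusters 5, in 4 genes, held 50 reads or more, a level reached by 2.22% of all primary clusters and chosen after the values were seen. The genes fell into different ranges. HNRNPC led with 148 reads, followed by HNRNPA2B1 with 83, LUC7L2 with 78, SRSF3 with 62, SNRPE with 50 and MBNL1 with 27. With no replicates kept apart, the order of neighbours in this series, such as HNRNPA2B1 and LUC7L2, has no error to be read against.

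**Figure D1:**
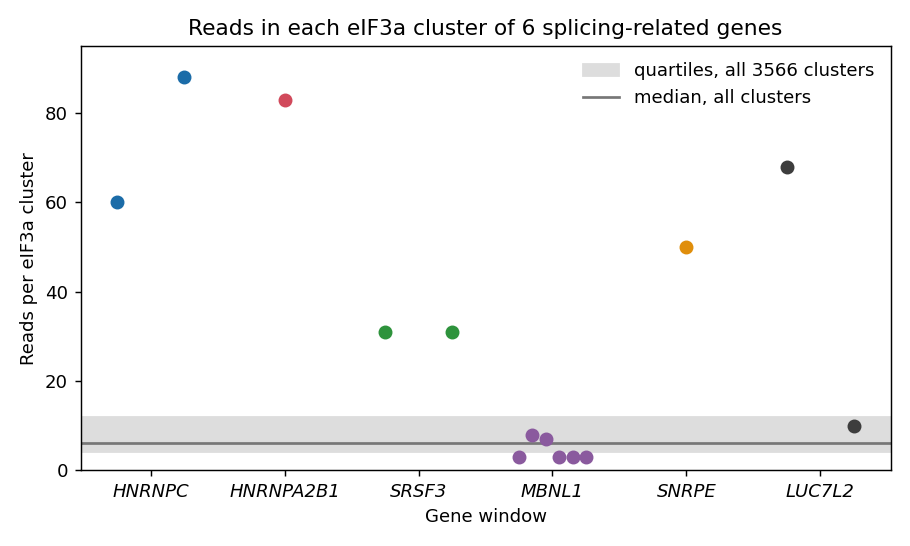
Reads in each eIF3a cluster (vertical axis, number of reads), by gene window (horizontal axis), with 1 point per cluster and clusters of a gene spread sideways from 5′ to 3′. The grey band and line give the quartiles (4 and 12) and the median (6) of all 3566 primary clusters: the 6 MBNL1 clusters and the second LUC7L2 cluster lie at or below the upper quartile, and the other 7 lie above it.

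HNRNPC, which binds uridine-rich RNA and packages nascent transcripts, had its reads in 2 clusters far apart in its window, 21677290 to 21737700. The cluster near the 5′ end, on chromosome 14 (minus strand) from 21737457 to 21737586, had a listed interval that began 114 nt inside the window and held 60 reads over 132 nt. Its score, the highest coverage of the cluster, was 21 reads. The listed interval of the second cluster began 35312 nt from the 5′ end, from 21702353 to 21702388. It held 88 reads and its score was 20. By reads it ranked 13 among the 3566 clusters, the best rank of the 14 members, whereas the first ranked 44. Only 36 nt of the second cluster were listed, although its profile was 265 nt long. The other 229 nt have no stated position, and 12 primary clusters, this one included, lacked as much or more.

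The shapes of the HNRNPC clusters differed. In the direction of transcription, coverage of the first cluster climbed to 15 reads at nt 25, dropped to 5 and climbed again to 21 reads between nt 83 and 91. The second cluster was highest early, with 20 reads at nt 36, and then tailed off over lower summits of 10 and 7 reads. The part of the profile before its midpoint held 40.7% of the coverage in the first cluster and 71.4% in the second. The first was also the more densely filled, with reads beginning at 55.6% of its 108 possible start positions, beside 36.5% in the second and a median of 19.4% over all primary clusters. Its longest unbroken run covered 19 neighbouring start positions. Another part of this cluster, at its 5′ edge and outside that run, had a counterpart elsewhere. A 40-nt stretch with 12 starts was also found in a cluster of 15 reads on chromosome 9 (minus strand, 19380194 to 19380235). With the 2 clusters laid over each other, 14 starts coincided. The 12 starts of the stretch were the unbroken run at nt 1 to 12 of the HNRNPC cluster. The rest of the stretch held no start, and at most of those positions no 25-nt read can begin within either profile. Only the smaller part of the 40 nt therefore carried detail. The chromosome 9 cluster itself had a run of 12 neighbouring starts, and such unbroken runs carry little detail to tell loci apart. Whether the same reads were listed at both places was not tested. Without the 14 starts the first HNRNPC cluster would hold 46 reads.

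HNRNPA2B1, an hnRNP protein that has been described as a reader of m6A-marked RNA, had a single cluster in its window, 26229550 to 26240420. It lay on chromosome 7 (minus strand) from 26240198 to 26240413, and its listed interval began 7 nt inside the window, the closest to a 5′ end of the 14. The profile was 16 nt longer than that interval, and those 16 nt have no stated position. Where the cluster itself began is therefore unknown. The cluster held 83 reads over 232 nt and ranked 15 by reads. Its score was 16, lower than that of the SNRPE cluster and the first HNRNPC cluster, which held fewer reads. Coverage rose over 3 summits of 11, 16 and 16 reads and did not drop below 11 between the last pair, so the reads were spread along a broad plateau. Reads began at 39.9% of the possible positions.

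SRSF3, a small SR protein that acts in splicing and in mRNA export, had 2 clusters with 31 reads each in its window, 36562080 to 36572250. The first, on chromosome 6 (plus strand) from 36562138 to 36562250, began 58 nt from the 5′ end and reached a score of 13 over 114 nt. Coverage dropped to 1 read between its tallest summit of 13 reads and the last one, of 7 reads. The second cluster reached a score of 11. Its listed interval, 36564538 to 36564539, lay 2458 nt from the 5′ end and was only 2 nt long, whereas the profile ran over 180 nt. The other 178 nt have no stated position, so where this cluster began is unknown. Among all primary clusters 35 had a listed interval of 2 nt or less, whatever the length of the profile. Clusters that lacked 178 nt or more numbered 19, this one included. With equal reads over unequal lengths, the first cluster used 34.4% of its start positions and the second 19.9%.

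MBNL1, a zinc-finger protein of the muscleblind family that regulates alternative splicing and is sequestered by expanded repeats in myotonic dystrophy, had the most clusters of the 6 genes and the fewest reads. Its window, 151961600 to 152183600, was also the longest at 222001 nt. Its 6 clusters lay on the plus strand of chromosome 3 between 152017342 and 152017982, a stretch of 641 nt that began 55742 nt from the 5′ end of the window. RefSeq has 3 annotated starts for MBNL1, and the distance from any of them to these clusters was not determined. In 5′ to 3′ order the clusters held 3, 8, 7, 3, 3 and 3 reads, with a score of 4 in the second and 3 in the others. The gaps between the listed intervals were 56, 5, 23, 73 and 173 nt. The counts are close to the lower end of the list, in which 554 clusters (15.5%) held 3 reads. Clusters at most 1000 nt apart on a strand were joined into 2877 regions, and only 10 of these held 6 clusters or more. Those 10 had a median of 62.5 reads and a range from 27 to 122, and MBNL1 was the one with 27. Whether the 6 MBNL1 clusters are separate sites or 1 thinly covered stretch was not tested. Of the 6, the 4 with 3 reads had a profile found at other loci too, and profiles of 3 reads have few possible forms.

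**Figure D2:**
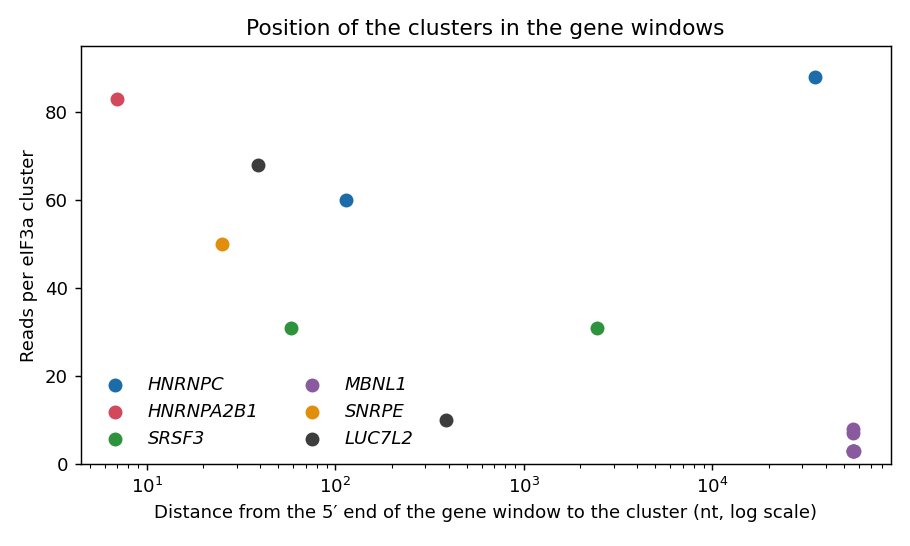
Distance from the 5′ end of the gene window to the nearest listed base of each cluster (horizontal axis, nt, log scale) against its reads (vertical axis), with 1 point per cluster, coloured by gene; points of equal value overlap. Clusters of 5 genes lie within 500 nt of the 5′ end, and those of MBNL1 lie together from 55742 nt onwards. The second clusters of SRSF3 and HNRNPC lie at 2458 and 35312 nt.

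SNRPE, the Sm protein E of the ring that forms the core of spliceosomal snRNPs, had 1 compact cluster in its window, 203830700 to 203840300. It lay on chromosome 1 (plus strand) from 203830725 to 203830845, 25 nt from the 5′ end, and held 50 reads over 122 nt. Its score of 22 was the highest of the 14 members and ranked 4, with ties, in the whole list. Coverage rose to 14 reads between nt 24 and 26, dropped to 8 and reached 22 at nt 64, which is 88 nt from the 5′ end. Of its 98 possible start positions 51.0% were used, and the longest run covered 17 neighbouring positions. The cluster was listed a second time with only its first 63 nt.

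LUC7L2, a homologue of a yeast U1 snRNP protein that takes part in the choice of 5′ splice sites, had 2 clusters separated by 17 nt in its window, 139044600 to 139108200. The first, on chromosome 7 (plus strand) from 139044639 to 139044970, began 39 nt from the 5′ end and held 68 reads. At 333 nt it was the longest of the 14, and its score was 13. It had 3 summits of 10, 13 and 7 reads, and coverage fell to 2 and to 1 between them. Reads began at 22.0% of the possible positions, close to the median of the list. The second cluster, from 139044988 to 139045060, held 10 reads, scored 6 and was listed again with only its first 20 nt.

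**Figure D3:**
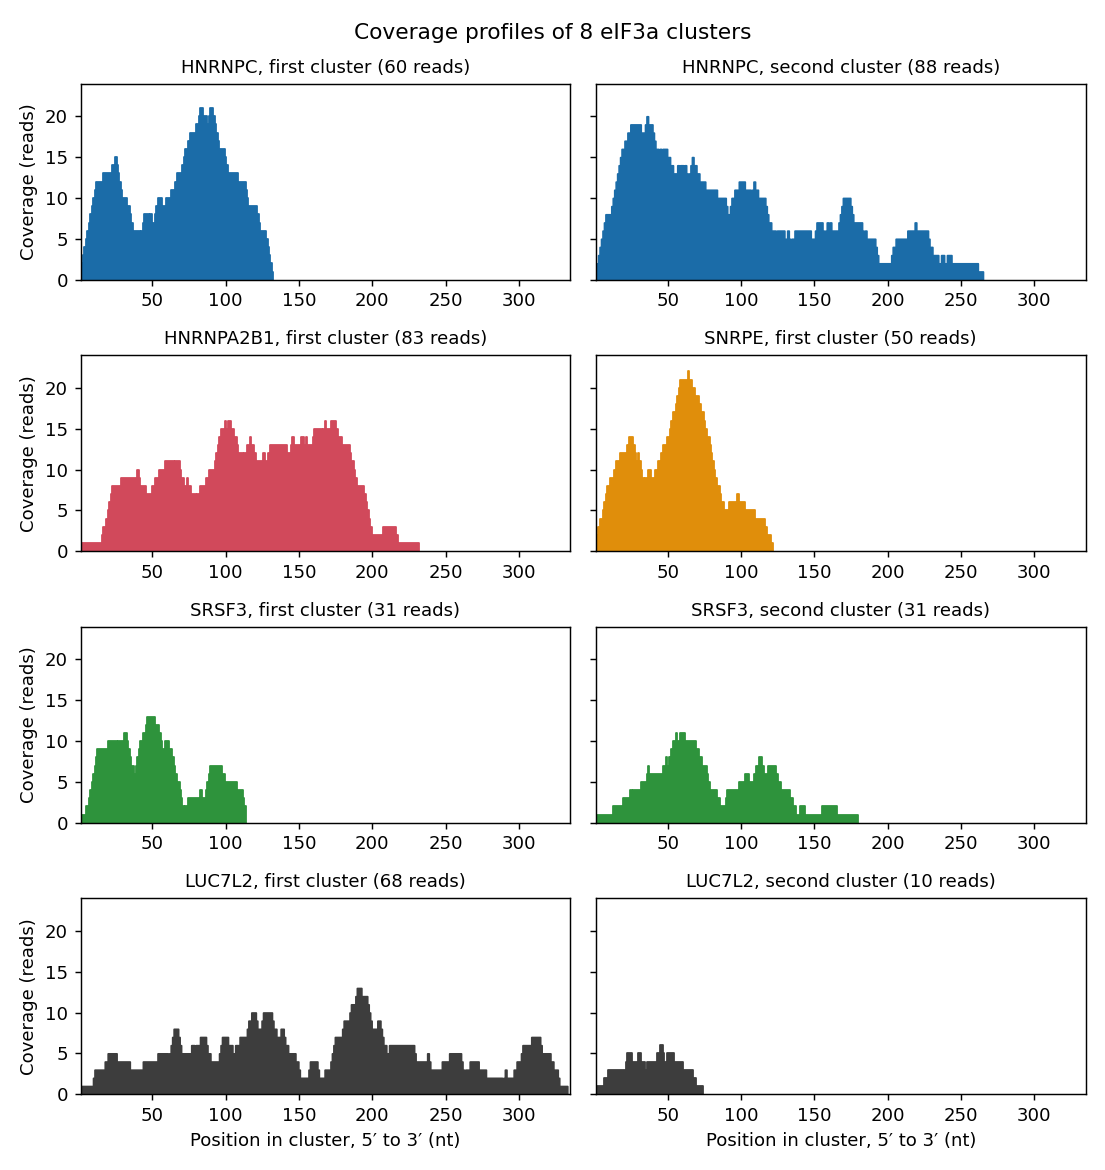
Coverage (vertical axis, reads) along 8 clusters in the direction of transcription (horizontal axis, nt from the 5′ end of each cluster), on common axes; the MBNL1 clusters, with at most 4 reads of coverage, are not drawn. The SNRPE cluster and the first HNRNPC cluster are short and tall, with tops of 22 and 21 reads, and the first LUC7L2 cluster is long and low, with a top of 13.

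Clusters with similar numbers of reads took different forms. The list held 79 primary clusters with 50 reads or more, with a median length of 227 nt and a median score of 17, and 5 of them were members. The first HNRNPC cluster and the SNRPE cluster ranked 76 and 78 of the 79 by length, so they were among the shortest, and ranked 4 and 11 by the share of start positions used. The first LUC7L2 cluster ranked 9 by length and 69 by that share. The HNRNPA2B1 cluster and the second HNRNPC cluster were nearer the middle, at ranks 36 and 28 by length and 25 and 32 by share. No start position of the 14 clusters held more than 1 read, so a 25-nt read length limits the score to 25 and a dense cluster cannot show further depth. The share of start positions used is then the reads divided by the possible positions. At similar reads it therefore follows from the length and is not a separate trait.

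**Figure D4:**
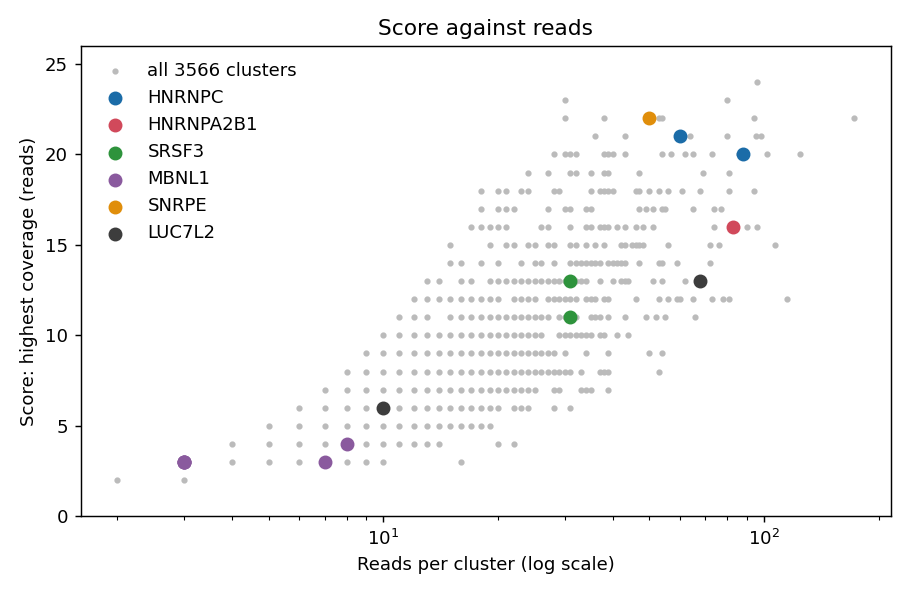
Score, the highest coverage in reads (vertical axis), against reads per cluster (horizontal axis, log scale) for all 3566 primary clusters (grey) and for the 14 member clusters (coloured by gene; equal values overlap). SNRPE reaches a score of 22 with 50 reads, whereas the first LUC7L2 cluster has 68 reads and a score of 13.

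By position, 6 clusters in 5 of the 6 genes had a listed interval that began within 500 nt of the 5′ end of their window, and they held 302 of the 448 reads (67.4%). The same share was not worked out for other genes, so these values describe the 6 genes only. In each of these 5 genes the first listed interval began 7 to 114 nt from that end. The remaining 8 clusters were the second ones of HNRNPC and SRSF3 and the 6 of MBNL1. The listed interval was more than 1 nt shorter than the profile in 5 of the 14 (35.7%), beside 41.4% of all primary clusters. Of the 7 clusters with enough reads to search for shared stretches, the first HNRNPC cluster was the one with a match, given above.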

How the data were processed

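Bowtie (no version given) aligned the eIF3a reads to hg19, per the submitters' processing notes. Not given in the sources used here are the cluster caller, its filters, duplicate handling and how replicates were combined. The authors deposited intervals with a strand, a signal (the highest coverage in whole reads, not normalized) and a coverage profile, and the list has no header. The signal equalled the profile maximum in all 4013 entries. Library depth is unknown.

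All 3113 distinct profiles split exactly into 25-nt reads, as did 3113 of 3113 simulated ones, which checks the arithmetic only. Entries of 1 profile at 1 place were counted as 1 cluster (3604, of which 3566 primary). Profiles were read in genome order, which matched better than the reverse in 15 of 15 pairs of overlapping clusters, 8 of them on the minus strand. Summits are maxima separated by a drop of at least 5 reads. Printed positions count from 1, and ends are uncertain by 1 nt. Stretches of 40 nt holding 10 to 30 starts were searched at other loci.

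No test was made. All 6 genes and all their clusters are named, as planned. Members and lists were chosen with earlier results of these data known. A wider list of splicing genes was not looked up, since no hg19 annotation was used here. RefSeq sequences are from GRCh38.p14, and all 6 symbols matched. Python 3.11.15, numpy 2.4.6, pandas 2.3.3, scipy 1.17.1 and matplotlib 3.10.9 were used.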

Additional observations from a re-analysis of the deposited data

How the results depend on the processing

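The 14 clusters became 16 when every entry was counted, 11 when clusters within 50 nt were merged, and 14 with windows widened by 1000 nt or intervals wholly inside. They became 8 with a score at or above the list's median of 5, and 8 without MBNL1, an alternative chosen after seeing the data. The opposite strand gave 0 clusters and 0 reads. The 448 reads became 300 without HNRNPC and 421 to 508 in the other alternatives. The share above the list's median of 6 reads, 71.4%, was 100% without MBNL1. The median itself changed in 2 alternatives. With the score filter it was 11 reads, and the share was 87.5% (48.4% in the list). Over entries it was 7 reads, and the share was 68.8% (44.2% in the list). The median distance of cluster middles from the 5′ end was 18894 nt, and 191.5 nt without MBNL1. The value of 18894 nt lies midway between the second clusters of SRSF3 (2458.5 nt) and HNRNPC (35329.5 nt), and no cluster lay near it. No paired analysis was possible because no column separates the replicates. Counts of 3 to 10 reads, as in MBNL1, limit what can be said of single clusters.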

Other observations

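Outside the windows, 4 clusters lay within 20 kb. On the strand of LUC7L2, clusters of 3 and 9 reads lay 18648 and 18470 nt upstream of its window, at 139025910 to 139025952 and 139026063 to 139026130 of chromosome 7. In RefSeq on GRCh38.p14, FMC1 and the readthrough gene FMC1-LUC7L2 overlap LUC7L2 on the same strand, so reads there, and reads in the LUC7L2 window, need not belong to LUC7L2 alone. Opposite HNRNPA2B1, plus-strand clusters of 13 reads at 26241357 to 26241446 and 7 reads at 26242591 to 26242618 of chromosome 7 lay 943 and 2177 nt from the HNRNPA2B1 cluster, on the side of its 5′ end. The gene next to HNRNPA2B1 in RefSeq is CBX3, on the opposite strand, which encodes the heterochromatin protein HP1 gamma. The 83 reads on the HNRNPA2B1 side stood beside 13 in the nearer of these clusters.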
